A study of Homo sapiens with 6 samples.

Results

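The genes described here are 10 genes of the unfolded protein response, out of 19974 protein-coding genes of the RefSeq table for GRCh38.p14: HSPA5, DNAJB9, XBP1, ATF4, ATF6, DDIT3, HERPUD1, EDEM1, ERN1 and EIF2AK3. They were followed through 3 lists of accessible regions (peaks), 1 list per treatment group. A peak belonged to a gene when it lay within 1 kb of either boundary of the gene (gene end), inside the gene, or outside it within 100 kb. By this rule the 10 genes held 5 of 7103 peaks in vehicle, 12 of 12385 after 6 h of T3 and 92 of 60661 after 24 h of T3. The members were selected on the presence, signal rank and replicate summits of their peaks in these same 3 lists, so those values are given as a description, with no test.

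The assay was ATAC-seq: a transposase, Tn5, inserts sequencing adapters where chromatin is open. The cells were Nthy-ORI, 1 immortalised human line from normal thyroid follicular epithelium, and 50000 cells were used per reaction. The study concerns TRβ, a thyroid hormone receptor, and SWI/SNF remodellers in the control of chromatin. All 3 groups were first starved of hormone for 24 h in phenol-red-free medium with charcoal-stripped serum. Group 1 then received the NaOH vehicle and is labelled 6 h. Group 2 was given T3 (triiodothyronine, the active form of thyroid hormone) at 10 nM for 6 h, and group 3 the same dose for 24 h. Each group had 2 samples, and the labels do not say whether these were separate cultures. A 24 h vehicle sample was not analysed here, so hormone and elapsed time cannot be told apart at 24 h.

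The unfolded protein response adjusts the folding capacity of the endoplasmic reticulum (ER) when unfolded proteins build up there. Sensors in the ER membrane start it: IRE1 (encoded by ERN1) splices the mRNA of the transcription factor XBP1, PERK (EIF2AK3) phosphorylates the initiation factor eIF2α and thereby favours translation of ATF4, and ATF6 is cut in the Golgi to release a transcription factor. Their targets include chaperones, components of ER-associated degradation and the stress factor DDIT3 (CHOP). In the thyroid the ER is where thyroglobulin, the large secreted precursor of thyroid hormone, is folded.

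ATF6 and XBP1 are known to act through short promoter elements, the ER stress response element (ERSE, CCAAT and CCACG with 9 bases of any kind between them) and ERSE-II (ATTGG and CCACG with 1 such base between them). RefSeq promoters of all 10 genes, 13 annotated starts in all, were searched on both strands from 250 bases before to 50 bases after each start. ERSE was found in HSPA5 and XBP1 and in 0.104% of 22132 promoters of the same length. ERSE-II was found in HERPUD1 and in 0.0678% of promoters. A match describes the letters only and shows no binding. The 250 bases before the start of these 3 genes follow, 5′ to 3′ on the gene's strand, because 24 h peaks covered all 3 matches. Capitals mark the fixed letters of ERSE in HSPA5 and XBP1, and of ERSE-II and of TGATGNAAN (the C/EBP-ATF response element, CARE) on the opposite strand in HERPUD1.
HSPA5, chr9:125241344-125241593, minus strand: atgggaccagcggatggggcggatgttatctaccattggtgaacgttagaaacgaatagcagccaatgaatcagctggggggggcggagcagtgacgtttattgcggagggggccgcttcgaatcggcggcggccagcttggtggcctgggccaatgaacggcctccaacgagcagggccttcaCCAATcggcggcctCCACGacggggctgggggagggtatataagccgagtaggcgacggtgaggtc
XBP1, chr22:28800570-28800819, minus strand: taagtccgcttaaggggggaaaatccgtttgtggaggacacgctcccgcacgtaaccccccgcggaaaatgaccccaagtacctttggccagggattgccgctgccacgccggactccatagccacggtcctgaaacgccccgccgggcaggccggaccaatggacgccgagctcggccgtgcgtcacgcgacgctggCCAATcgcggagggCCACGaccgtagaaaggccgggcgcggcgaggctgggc
HERPUD1, chr16:56931892-56932141, plus strand: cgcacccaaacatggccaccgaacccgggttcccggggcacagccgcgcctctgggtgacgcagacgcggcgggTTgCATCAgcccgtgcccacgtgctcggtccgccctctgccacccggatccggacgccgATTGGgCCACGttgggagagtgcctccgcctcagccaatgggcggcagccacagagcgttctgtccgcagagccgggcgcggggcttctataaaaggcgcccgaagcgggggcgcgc

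DNAJB9 and EIF2AK3 had no match to either element. Their promoters are shown because they were the members with a gene-end peak after 6 h as well as 24 h. Here capitals mark the constant parts of ERSE, taken singly, on either strand: CCAAT, found in 34.6% of promoters, and CCACG, found in 43.1%.
DNAJB9, chr7:108569624-108569873, plus strand: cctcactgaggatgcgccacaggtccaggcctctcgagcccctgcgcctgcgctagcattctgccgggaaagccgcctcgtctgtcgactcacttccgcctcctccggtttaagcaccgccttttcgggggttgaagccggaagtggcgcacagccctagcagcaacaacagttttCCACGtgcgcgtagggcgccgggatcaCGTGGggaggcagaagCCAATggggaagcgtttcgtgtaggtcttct
EIF2AK3, chr2:88627465-88627714, minus strand: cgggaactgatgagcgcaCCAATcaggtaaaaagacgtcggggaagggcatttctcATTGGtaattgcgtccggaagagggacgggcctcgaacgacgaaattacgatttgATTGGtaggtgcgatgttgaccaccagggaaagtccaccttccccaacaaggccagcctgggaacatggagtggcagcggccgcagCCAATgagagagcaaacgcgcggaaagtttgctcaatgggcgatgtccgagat

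CCAAT was present in the promoters of 8 members, all but ATF4 and ATF6, and CCACG in those of 7. These short motifs are contained in ERSE, and ATTGG in ERSE-II is CCAAT on the opposite strand, so the counts overlap. The UPRE core TGACGTGG, held by 0.764% of promoters, and the cAMP response element TGACGTCA, held by 2.26%, were in none of the 10. CARE, held by 2.69% of promoters, was in HERPUD1 alone among them.

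The 3 lists differed in length and in sharpness. From 7103 peaks in vehicle to 60661 at 24 h, median peak width went from 1290 to 696 bp, with 1160 bp at 6 h. The median gap between replicate summits was 180 bp in vehicle, 222 bp at 6 h and 46 bp at 24 h. Read depth is not given by these lists, and its part in the differences between lists was not tested; a gene without a peak is not shown to be closed. Among thyroid follicular markers, PAX8, NKX2-1, FOXE1, HHEX and TSHR had a gene-end peak at 24 h, whereas the defining genes TG and SLC5A5 had none. Gene-end peaks at 24 h were also listed for 4 of 5 epithelial markers, 3 of 6 fibroblast markers, 2 of 5 blood cell markers (CD3E and SPI1) and 1 of 3 endothelial markers, with 60.8% of all protein-coding genes having one.

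In vehicle 0 of the 10 members had a gene-end peak, against 1.34% of all protein-coding genes. After 6 h of T3, 2 members had one, DNAJB9 and EIF2AK3, against a background of 10.8%. After 24 h all 10 members had one, against 60.8%. The pattern of DNAJB9 and EIF2AK3, a gene-end peak in both T3 lists and none in vehicle, was shared by 9.82% of all genes. The pattern of the other 8 members, a gene-end peak at 24 h alone, was shared by 49.8%. Counting peaks inside the gene too gave 1, 3 and 10 members in vehicle, at 6 h and at 24 h, against backgrounds of 8.17%, 22.7% and 77.2%. Any peak within 100 kb was found for 5, 7 and 10 members, against 33.1%, 66.8% and 97.6%. When each list was limited to its 7103 strongest peaks, the 24 h count was 3 members, HSPA5, DNAJB9 and EIF2AK3, against 16.6% of all genes.

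A peak's deposited signal is the sum of its signals in both replicates. It was read only within its own list, as a percentile: the share of the list's peaks with a signal at or below it. Across the 10 members the strongest 24 h gene-end peak had a median percentile of 81.3, against 75.7 over the 12137 genes with such a peak. The order ran from DNAJB9, at the top, through EIF2AK3, HSPA5, HERPUD1, EDEM1, XBP1, ATF6 and ERN1 to ATF4 and DDIT3.

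**Figure D1:**
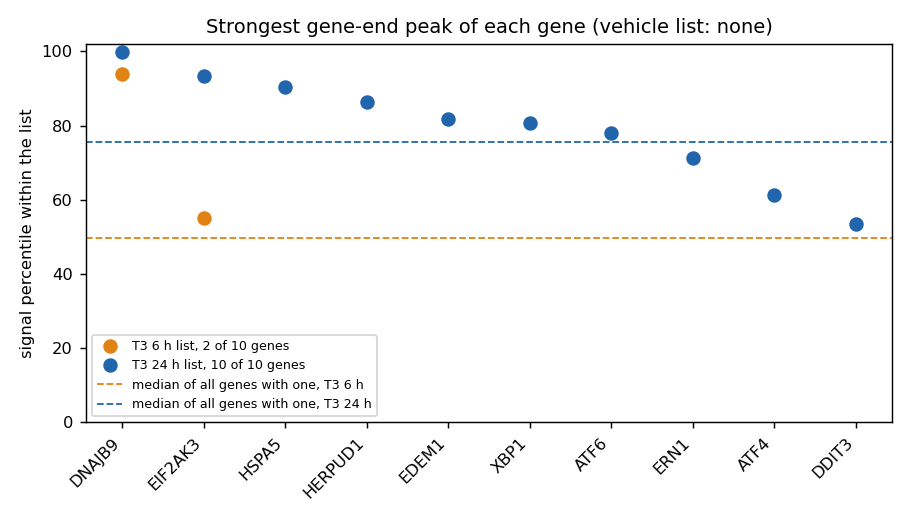
Signal percentile, within its own peak list, of the strongest gene-end peak of each of the 10 genes (points: blue T3 24 h, orange T3 6 h; dashed lines: medians over all genes with a gene-end peak). At 24 h the genes ran from 53.5 (DDIT3) to 99.9 (DNAJB9), and 3 of them, ERN1, ATF4 and DDIT3, lay below the all-gene median of 75.7.

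Among the sensors, EIF2AK3 (PERK) had the strongest start peak and alone had a gene-end peak at 6 h as well. Its 24 h peak, chr2:88626819-88628302, had replicate signals of 12.2 and 15.1 and lay at percentile 93.4. The peak position, taken as the mean of both replicate summits, was 144.5 bp upstream of the annotated start. At 6 h a peak at chr2:88627369-88628399 overlapped it, with replicate signals of 4.98 and 5.36 and percentile 55.1. The 6 h summits were 32 bp apart and those at 24 h 41 bp apart, so both replicates placed this region alike in each list. The 6 h peak had an IDR (irreproducible discovery rate, a measure of agreement between replicates) of 0.0111 and was the one lost when the limit was 0.01. With a gene-end window of 500 bp, 9 members kept a 24 h gene-end peak, against 52.6% of all genes, and EIF2AK3 did not, since the window is counted from the RefSeq gene boundary, which in EIF2AK3 lies upstream of the annotated start.

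The strongest peak of EIF2AK3 at 24 h was not at its start. It lay inside the gene at chr2:88600044-88600457, 27.2 kb downstream of the annotated start, with replicate signals of 17.3 and 22.2 and percentile 99.6. Its 2 summits were 1 bp apart and it was 414 bp wide, narrower than the 1484 bp of the start peak. Neither the vehicle nor the 6 h list held a peak there. Of the 5 members with both a gene-end and an inside peak at 24 h, EIF2AK3 was the 1 whose inside peak had the higher signal. Over all genes with both, the inside peak was the stronger in 45.9%. Whether the region is exonic or intronic was not analysed here.

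ERN1 (IRE1) was the one member with a peak inside the gene in every list. The vehicle peak, chr17:64120977-64121918, lay 8.81 kb downstream of the start at percentile 37.2, with replicate signals of 3.96 and 5.49 and summits 301 bp apart. It overlapped no peak of either T3 list. At 6 h the gene held peaks at chr17:64048685-64050013 (percentile 52.0) and chr17:64055313-64056718 (percentile 70.1), toward its far end. The first had summits 598 bp apart and no counterpart at 24 h; the second had summits 4 bp apart and overlapped a 24 h peak at chr17:64056183-64056906, percentile 24.2. Further inside peaks at 24 h lay at percentiles 59.5 and 0.203. The 24 h start peak, chr17:64129195-64130830, had replicate signals of 7.49 and 9.41, percentile 71.3 and a position 40 bp downstream of the start. It was the single one of the members' strongest start peaks placed downstream of the start.

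ATF6, the longest of the 10 genes at 197751 bp, had a pair of gene-end peaks at 24 h and none in vehicle or at 6 h. The stronger, chr1:161766145-161766819, had replicate signals of 8.06 and 10.9, percentile 78.0 and a position 53.5 bp upstream of the start. The weaker, chr1:161765298-161765482, lay 922.5 bp upstream at percentile 70.9, with summits 3 bp apart and a width of 185 bp. It was just within the 1 kb limit. ATF6 also held 3 inside peaks at 24 h with percentiles of 3.32, 48.0 and 59.3, all with replicate summits within 9 bp. Their signals were below that of the start peak.

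Of the transcription factors downstream of the sensors, ATF4 and DDIT3 had the lowest percentiles of the 10 members, whereas XBP1 stood above the sensors ATF6 and ERN1. XBP1 had a 24 h peak at chr22:28800338-28801010, with replicate signals of 8.56 and 11.5 and percentile 80.8. Its position was 56.5 bp upstream of the first annotated start, and one replicate summit lay 1 bp outside the ERSE match, the other 28 bp away. A second XBP1 peak, chr22:28799349-28799629, lay 1122.5 bp downstream of the first start, just outside the 1 kb limit, and 630.5 bp downstream of the second start. It had replicate signals of 9.52 and 6.73, with the first replicate the higher, and percentile 68.9.

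ATF4, which drives amino acid and antioxidant genes of the integrated stress response, had a 24 h peak at chr22:39519128-39520875 with replicate signals of 5.40 and 9.07 and percentile 61.2. The position, 398.5 bp upstream of the nearest start, was the farthest of the strongest start peaks. DDIT3, the pro-apoptotic factor CHOP, had the lowest value of the 10, percentile 53.5, at chr12:57519566-57520876. Its replicate signals were 5.43 and 7.61, and both summits lay within 5 bp of each other, 46.5 bp upstream of the nearest start. The same peak lay at ends of MBD6 and LOC128125814, so it cannot be assigned to DDIT3 alone. ATF4 and DDIT3 ranked 8373 and 9204 among the 12137 genes.

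Among the targets, DNAJB9 (ERdj4, a co-chaperone of BiP) stood highest. Its 24 h peak, chr7:108569197-108570742, had replicate signals of 23.7 and 22.2 and percentile 99.9, rank 5 of the 12137 genes. At 6 h the peak at chr7:108568859-108570273 had replicate signals of 7.19 and 7.68 and percentile 93.9, rank 50 of 2162 genes. It was thus near the top of both T3 lists and in neither form present in vehicle. The replicates did not place its summit alike. In the 24 h list they lay 348 and 96 bp upstream of the start, 252 bp apart; at 6 h they lay 188 and 579 bp upstream, 391 bp apart. With summits required to lie within 100 bp, DNAJB9 was left without a gene-end peak. Both peaks also lie at an end of THAP5, a neighbouring gene, and the lists cannot assign them to one of these genes.

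HSPA5 encodes BiP, the main ER chaperone of the HSP70 family, which binds the sensors when few unfolded proteins are present. Its 24 h peak, chr9:125240876-125242112, had replicate signals of 11.0 and 14.0 and percentile 90.4. Both summits, 16 bp apart, lay upstream of the ERSE match at bases -66 to -48, at distances of 81 and 97 bp. HERPUD1, a membrane protein of ER-associated degradation, had a 24 h peak at chr16:56931737-56932607 with replicate signals of 10.0 and 12.6 and percentile 86.4. Its 2 summits were 1 bp apart and lay 1 and 2 bp from the ERSE-II match at bases -117 to -107. This was the closest placement of replicate summits among the 10 start peaks.

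EDEM1, which directs misfolded glycoproteins to degradation, had a 24 h peak at chr3:5187301-5189134 with replicate signals of 10.1 and 10.5 and percentile 81.9. Its summits were 158 bp apart, so EDEM1 joined DNAJB9 as the members that had no gene-end peak once summits had to agree within 100 bp, leaving 8 of 10 at 24 h, against 43.5% of all genes under that limit. A further peak inside EDEM1, chr3:5194784-5195043, lay 7.24 kb downstream of the start at percentile 68.7, with replicate signals of 8.17 and 8.02. HSPA5, HERPUD1 and EDEM1 had no gene-end or inside peak in vehicle or at 6 h.

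**Figure D2:**
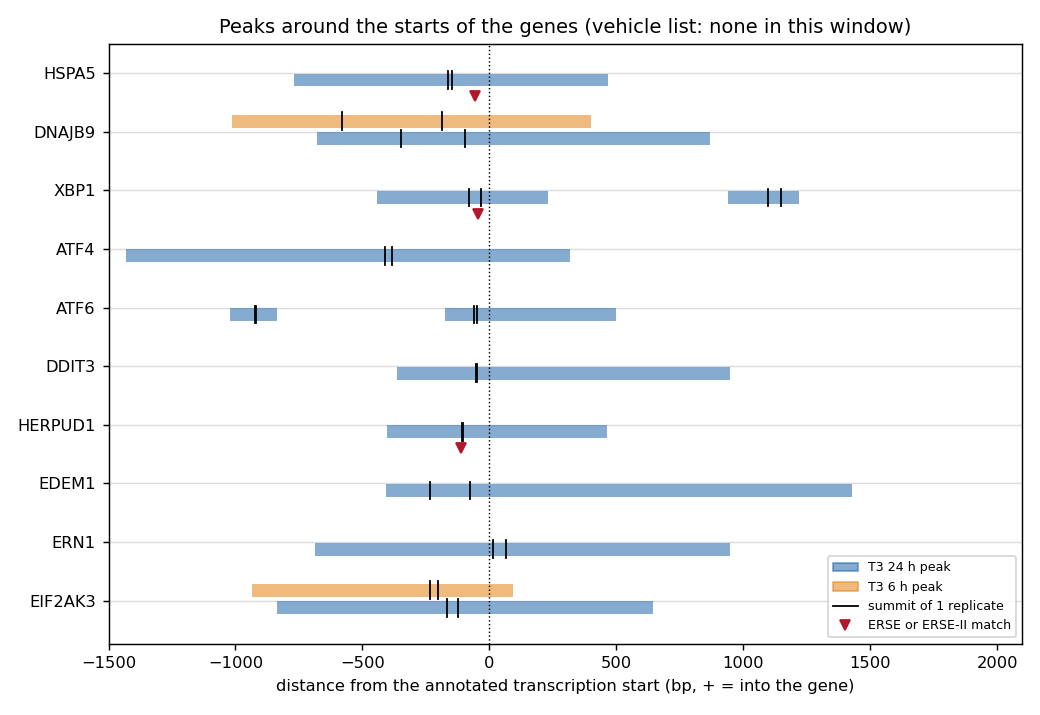
Peaks within 1500 bp of the first annotated start of each gene (x axis: distance in bp, positive into the gene; blue bars T3 24 h, orange bars T3 6 h; black ticks: summits of single replicates; red triangles: ERSE or ERSE-II matches). Every gene has a 24 h peak over or next to its start, 2 have a 6 h peak, and the ticks lie far apart in DNAJB9 and almost together in HERPUD1 and DDIT3.

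All 10 members had their strongest 24 h gene-end peak within 1 kb of an annotated start rather than at the other end of the gene, and in 9 it lay upstream. The median distance was 125 bp without regard to side. For all genes the gene-end peak nearest the start was taken, which in each member was also the strongest. Among all genes with a gene-end peak and an annotated start, 91.9% had one within 1 kb of the start. The median distance of these was 113.5 bp, and 68.7% lay upstream. Promoter GC content, with a median of 63.5% in the members, was near the 62.7% of all 15812 genes that could be matched. The members' GC range, 47% to 78.3%, held 12828 of these 15812 genes. Of those 12828 genes 70.3% had a 24 h gene-end peak, against 63.4% of the 15812.

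The second replicate column held the higher signal in 10 of the 11 gene-end peaks of the members at 24 h, with DNAJB9 the exception. In the whole 24 h list this was so for 8261 of 11539 gene-end peaks. Between these columns the ratio in the members' strongest peaks ran from 0.934 in DNAJB9 to 1.68 in ATF4, so the order of neighbouring members can differ between replicates. EDEM1 and HERPUD1, for example, had first replicate signals of 10.1 and 10.0 but second replicate signals of 10.5 and 12.6. HSPA5, DNAJB9 and EIF2AK3 were the 3 highest in both columns.

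**Figure D3:**
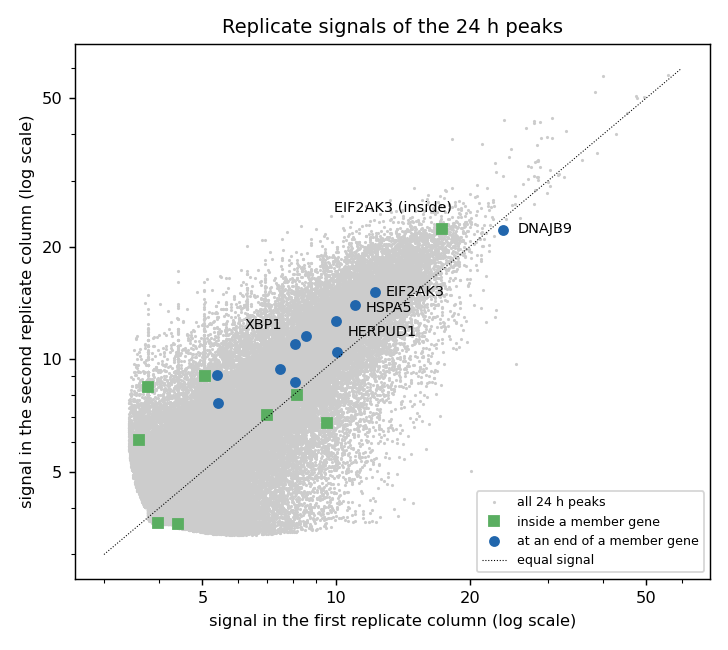
Signal in the second against the first replicate column for every peak of the T3 24 h list (grey, both axes logarithmic), with gene-end peaks of the 10 genes in blue and peaks inside them in green. All blue points but that of DNAJB9 (23.7 and 22.2) lie above the line of equal signal, and the inside peak of EIF2AK3 (17.3 and 22.2) lies next to DNAJB9 at the upper right.

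Around the genes, 72 of the 92 peaks at 24 h lay outside them within 100 kb, and 23 of the 72 were at an end of another gene. The strongest of these were at the ends of SCAI (percentile 99.4, 91.2 kb from HSPA5) and RPIA (percentile 99.4, 63.5 kb from EIF2AK3). Of the 49 at no gene end, the one with the highest signal lay 15.7 kb upstream of ERN1 at chr17:64145534-64146692, 1394.5 bp from an end of TEX2. It had percentile 97.6 at 24 h and overlapped a 6 h peak of percentile 61.5. Upstream of EDEM1, a peak at chr3:5161800-5162445 lay 25.4 kb from the start and 18.6 kb from the nearest gene end, at percentile 95.4 with summits 3 bp apart. HSPA5 had a 24 h peak 1.01 kb outside its far end, just beyond the limit, which lay 321 bp from an end of RABEPK.

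A peak was counted as shared between lists when the overlap made up 50% or more of the shorter peak. Of the 12 peaks at 6 h, 9 were shared with the 24 h list, which is 9 of the 92 at 24 h. Over the whole lists, 49.3% of the 6 h peaks were shared with 24 h and 10.2% of the 24 h peaks with 6 h. They comprised both gene-end peaks, 1 of the 2 inside peaks of ERN1 and 6 of the 8 peaks farther out. Of the 5 vehicle peaks, 0 were shared with 6 h and 1 with 24 h, against 33.2% and 33.6% of all vehicle peaks. Conversely, 0 of the 12 peaks at 6 h and 1 of the 92 at 24 h were shared with vehicle, against 19.2% and 4.05% of those lists. The shared vehicle peak, chr1:162030460-162031584, lay 66.7 kb beyond ATF6, and it was not shared when 80% overlap was required. The other vehicle peaks outside genes lay 70.1 kb from DNAJB9, 66.9 kb from DDIT3 and 34.7 kb from HERPUD1.

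**Figure D4:**
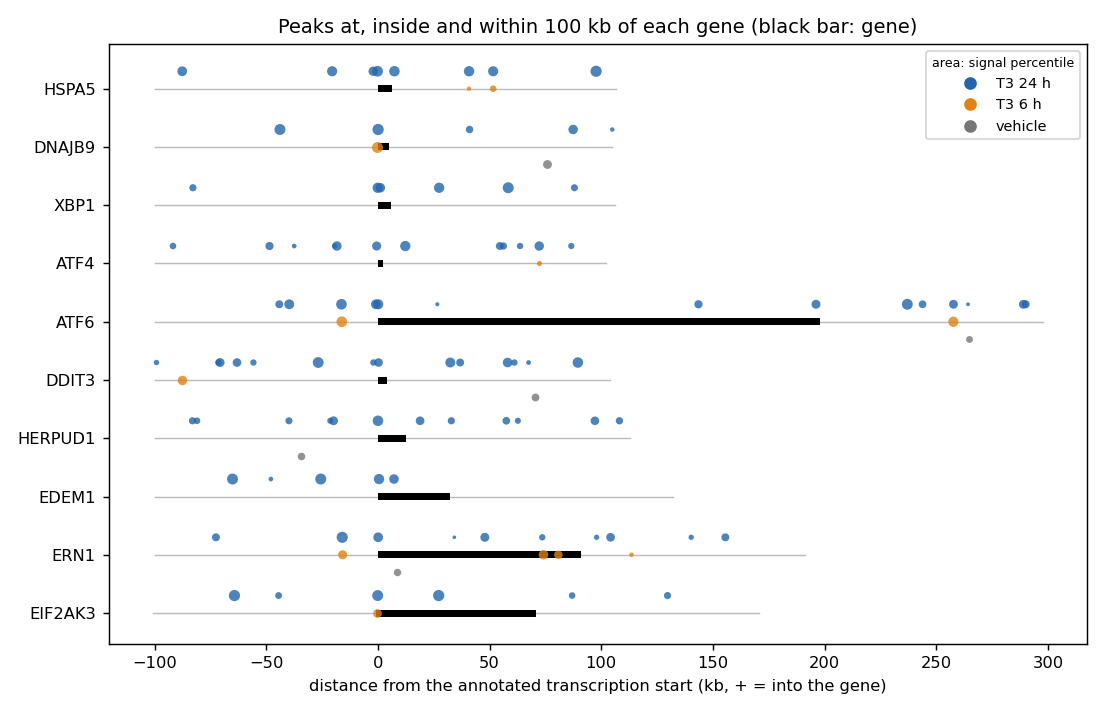
All peaks at, inside and within 100 kb of each gene, by distance from the annotated start in kb (black bar: the gene; point area: signal percentile; rows of points: T3 24 h blue, T3 6 h orange, vehicle grey). The 92 peaks at 24 h lie along every locus, whereas the 12 at 6 h and the 5 of vehicle are scattered, with 3 of these 17 inside ERN1.

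The rest of the pathway was taken as 98 further genes in 5 lists. They had 2 genes with a gene-end peak in vehicle, 20 at 6 h and 92 at 24 h, against the backgrounds of 1.34%, 10.8% and 60.8% given above. The median percentile at 24 h was 85.8, above the 81.3 of the 10 members. At 6 h the median of the 20 genes was 47.9, against 49.7 over all genes with a 6 h gene-end peak. The vehicle genes were DNAJC3 (p58IPK, a co-chaperone that inhibits PERK) and EIF2S1 (eIF2α, the PERK substrate), and both were in all 3 lists, as were 0.456% of all genes. DNAJC3 had percentiles of 63.9 in vehicle, 89.5 at 6 h and 98.4 at 24 h. The replicate summits of these DNAJC3 peaks lay 90, 581 and 33 bp apart, and the 6 h replicate signals were 8.82 and 4.42. EIF2S1 had percentiles of 70.5, 84.6 and 96.6, through peaks shared with ATP6V1D, with summits 223, 297 and 1 bp apart.

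Of 20 genes listed as ER chaperones and folding enzymes, 1 had a gene-end peak in vehicle, 5 at 6 h and 19 at 24 h. Their 24 h median percentile was 90.7. Besides DNAJC3, the 6 h genes were PDIA4 (6 h percentile 89.7), SDF2L1 (22.6), UGGT1 (85.0) and GRPEL1 (74.5). GRPEL1 encodes a mitochondrial protein, not one of the ER, and is included in the 6 h and 24 h counts. The highest at 24 h were HSP90B1 (GRP94, the ER form of HSP90) at 99.2 and PDIA4, a disulphide isomerase, at 98.9, and the lowest was the oxidase ERO1A at 60.7. PDIA6, a further disulphide isomerase, lacked a gene-end peak throughout but had 2 peaks at 24 h within 1 kb of an annotated start. Of 17 genes of ER-associated degradation, 0 had a gene-end peak in vehicle, 6 at 6 h and all 17 at 24 h. The 6 h genes were EDEM2 (6 h percentile 10.1), EDEM3 (56.6), VCP (35.7), UBXN4 (9.05), FAF2 (27.4) and UFD1 (69.9), the last through a peak shared with CDC45. Replicate summits of these 6 h peaks lay from 14 bp (EDEM2) to 762 bp (VCP) apart. EDEM3, a relative of EDEM1, reached 99.3 at 24 h and the lectin OS9 99.0, while WFS1 was lowest at 62.3.

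Of 20 genes of ER translocation and transport, 0, 4 and 18 had a gene-end peak in vehicle, at 6 h and at 24 h. The 6 h genes were SEC61B, SEC62, SRP54 and SEC23B, of the translocation channel, the signal recognition particle and the COPII coat. SEC62 and SEC23B lay near the bottom of the 6 h list, at percentiles 1.19 and 2.19. SEC61B, through a peak shared with ALG2, and SRP54 lay at 82.7 and 85.8. SSR3 at 98.5 and SEC61G at 98.0 were highest at 24 h and the retrieval receptor KDELR3 was lowest at 32.4. SRPRB and KDELR1 had no gene-end peak, though each had 1 peak at 24 h near an annotated start.

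Of 20 genes of the PERK-ATF4 branch and the integrated stress response, 1, 3 and 18 had a gene-end peak. Those at 6 h were EIF2S1 (6 h percentile 84.6), EIF2B5 (39.2) and PSAT1 (6.79). PSAT1, an enzyme of serine synthesis, reached 99.1 at 24 h and the adaptor NCK1 97.2, with replicate summits 476 and 67 bp apart. The stress factor NUPR1 was lowest at 31.5. ATF3 and CEBPG lacked one in all 3 lists. Of 21 genes of sensor processing and signalling, 0, 2 and 20 had one. CREB3L2, an ER-bound transcription factor, and NFYA, a subunit of the CCAAT-binding factor NF-Y, had it at 6 h, at percentiles 37.7 and 78.0. TMBIM6, a membrane protein that restrains IRE1, reached 99.8 at 24 h and ZBTB8OS (archease), of the tRNA ligase complex that joins spliced XBP1 mRNA, 97.6, through a peak shared with RBBP4 whose replicate summits lay 543 bp apart. TRAF2 was lowest at 38.2, and the apoptosis gene BBC3 had none in any list.

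**Figure D5:**
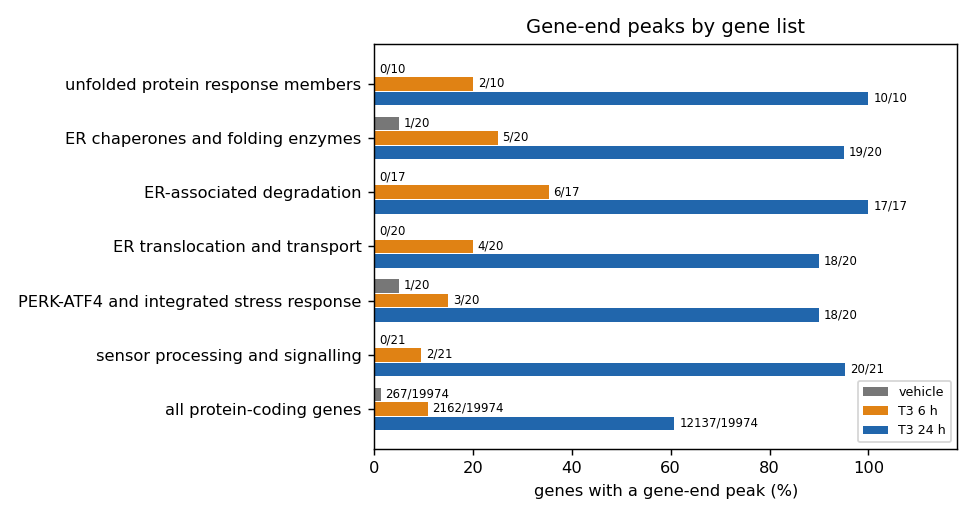
Share of genes with a gene-end peak in percent (bars from 0; grey vehicle, orange T3 6 h, blue T3 24 h; counts beside the bars) for the 10 genes, 5 further pathway lists and all protein-coding genes. The 24 h bars run from 90.0% to 100% in the pathway lists against 60.8% for all genes, and the 6 h bars from 9.52% to 35.3% against 10.8%.

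ERSE and ERSE-II matches were followed beyond the 10 members. The members and the further pathway genes held 9 distinct ERSE sites in the promoters of 8 genes, HSPA5, XBP1, ERO1B, PDIA6, CANX, HSP90B1, CALR and CRELD2, and 9 of 9 lay under a 24 h peak. They held 4 ERSE-II sites in HERPUD1, HYOU1 and SDF2L1, of which 4 of 4 lay under a 24 h peak. In promoters of genes outside these lists, 6 of 11 ERSE and 8 of 11 ERSE-II sites did. A 24 h gene-end peak was held by 66.7% of all 21 genes with ERSE and 73.3% of all 15 with ERSE-II. Among the 15812 genes with a matched promoter the share was 63.4%, with or without a site. It was 60.8% of all protein-coding genes and 93.9% of the 98 further pathway genes. Under 6 h peaks lay 0 of 9 and 1 of 4 sites of the listed genes, the latter in SDF2L1, and under vehicle peaks none. In genes outside the lists, 1 of 11 ERSE and 1 of 11 ERSE-II sites lay under a 6 h peak, and 1 of 11 ERSE sites lay under a vehicle peak. The sites of HSPA5 and of HSP90B1 and CALR, also ER chaperones, are given for comparison, with the fixed letters in capitals and positions counted from the annotated start.
HSPA5, bases -66 to -48: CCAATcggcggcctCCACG
HSP90B1, bases -194 to -176: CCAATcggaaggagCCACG
HSP90B1, bases -89 to -71, opposite strand: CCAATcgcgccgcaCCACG
CALR, bases -225 to -207, opposite strand: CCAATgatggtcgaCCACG
The 24 h peaks over them lay at percentiles 90.4 in HSPA5, 99.2 in HSP90B1 and 85.9 in CALR. HSP90B1, with a pair of sites, also had its replicate summits 460 bp apart, against 16 bp in HSPA5.

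Of all genes outside the pathway lists with gene-end peaks in both T3 lists and none in vehicle, those most like DNAJB9 in both percentiles were sought among 1939 genes, as the smallest summed difference over the 2 lists. THAP5 came first with a difference of 0 because it shares both peaks. C12orf60 and WBP11, which share a peak with each other, followed at 0.574, with percentiles of 93.3 at 6 h and 99.9 at 24 h.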

How the data were processed

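ATAC-seq was analysed in 6 samples in 3 groups of 2 as 3 deposited peak lists; the authors made 1 for each group by merging both of its samples. Per the submitters' processing notes, the tools were Bowtie2, MACS2, DiffBind, Trim Galore and CASAVA 1.7, with build hg38. Settings, Tn5 read shifting, duplicates and blacklists were not given in the sources used here. Deposited columns follow the IDR layout: the score is the scaled IDR, from 540 to 1000, and the −log10 of the IDR is also deposited, and no peak exceeded 0.05. The deposited signal equals the sum of both replicate signals. How the authors normalised it is unknown, so no signal was compared between lists. The p-value and q-value columns were empty. The lists hold no counts, so depth is unknown.

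Peak position was the mean of both replicate summits. Gene boundaries, starts, strand and promoter sequences came from RefSeq tables of GRCh38.p14. Python 3.11.15, numpy 2.4.6 and pandas 2.3.3 were used. The code that assigns peaks to genes, tested on simulated data, recovered the class of 600 of 600 planted peaks. On these simulated peaks it gave the same 2788 gene-peak pairs as bedtools 2.31.1. The deposited lists and the code for overlap between peaks were not part of this check.

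The members and the gene lists were chosen with earlier results of these data known. The naming rule took all 10 members with every peak at the gene end or inside the gene. From each further list it took the genes that had such an end peak in the vehicle or 6 h list, the 2 highest and the lowest at 24 h, and those with none. Likeness was asked for the 3 closest genes. Peaks near the members, promoter matches and sites were named after their values were seen. With 1 list per group, no test was made. Alternatives were a stricter IDR, agreement of replicate summits, lists of equal length, 1 replicate column for ranking, other windows, any overlap of a peak with the window and other overlaps. One marker gene is not reported here.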

Additional observations from a re-analysis of the deposited data

How the results depend on the processing

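Read depth is unknown and each group has 1 list, so absence from a list is not evidence of closed chromatin and no difference between lists has a replicate check. No paired analysis was possible because the replicate columns carry no number, there is 1 list per group and no test was made. Of 96 values under alternatives, 65 kept within 1.5 times the value reported. The other 31 follow, and beyond the construction of each alternative, which keeps fewer peaks or a smaller window, the cause was not tested. Some of the 65 could not move. The vehicle list already had the equal length of 7103 peaks, so equal length and ranking by 1 replicate column left it unchanged. No member had a gene-end peak in vehicle, so fewer peaks or a smaller window could not lower that count. All 10 members had one at 24 h, so a larger window could not raise that count. The tally of 65 therefore overstates how well the values withstood the alternatives.

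Lists of equal length gave 3 members with a gene-end peak at 24 h, 3 with one at the end or inside, 40 further pathway genes at 24 h and 10 at 6 h, and 13 peaks within 100 kb at 24 h. All-gene shares there were 16.6% at a gene end and 23.6% at the end or inside at 24 h, and 6.26% at a gene end at 6 h. Ranking by 1 replicate column gave 3 members for both counts at 24 h with either column. It gave 37 to 44 pathway genes at 24 h and 10 to 13 at 6 h. Peaks numbered 13 to 14 at 24 h and 7 to 9 at 6 h. All-gene shares under this ranking were 16.0008% to 16.4514% at a gene end at 24 h. They were 22.9598% to 23.846% at the end or inside at 24 h, and 5.46711% to 6.93902% at a gene end at 6 h. With an IDR of at most 0.01, the 6 h list had 1 member at a gene end, 9 pathway genes (3.59% of all genes) and 5 peaks, and vehicle had 0 members at the end or inside (2.98%) and 0 peaks. With replicate summits within 100 bp, the 6 h list had 1 member, 8 pathway genes (3.14% of all genes) and 4 peaks, and vehicle had 0 members at the end or inside (2.30%), 1 pathway gene (0.320%) and 2 peaks. A window of 500 bp gave 1 pathway gene in vehicle (0.846% of all genes). An outer window of 50 kb gave 57 peaks at 24 h and 2 in vehicle. At 80% overlap 0 vehicle peaks were shared with 24 h.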
